A study of Mus musculus with 6 samples.

Results

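The cells described here are the leukocytes other than macrophages that were sorted from the soleus muscle of old and young mice kept as ambulatory controls. They were chosen as barcodes with at least 200 detected genes, at most 10% of their unique molecular identifiers (UMIs, each standing for 1 captured transcript) in mitochondrial genes, and at most 1 UMI over C1qa, C1qb and C1qc, the complement genes that mark muscle macrophages. By this rule 2095 of the 2918 barcodes of the old control library and 1021 of the 1675 barcodes of the young control library were members, together 3116 of the 15467 barcodes of the series. All animals were male C57BL/6 mice without any genetic change. The old control mice were 20 to 22 months of age and the young control mice 4 to 5 months, both left to walk freely. Solei of 20 old mice and of 10 young mice were pooled into 1 library each, minced and dissociated, and living CD45+ cells (CD45 is carried by all leukocytes) were isolated by flow cytometry. The series also holds a hindlimb unloading (HU) library and a library from day 4 of reloading at each age, sequenced in other runs than the controls.

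Each age was therefore measured once, as a pool. No p-value was computed between the ages. The intervals given are 95% intervals that cover counting error only, not the variation between mice or between preparations. Skeletal muscle at rest holds resident macrophages and smaller numbers of T cells, innate lymphoid cells, natural killer (NK) cells, B cells, neutrophils, monocytes and dendritic cells. T and B cells recognise antigen through rearranged receptors. Group 2 innate lymphoid cells (ILC2) have no such receptor and release type 2 cytokines when alarm signals from tissue reach them. NK cells kill target cells without prior priming, neutrophils and monocytes enter from blood, and dendritic cells present antigen to T cells.

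The depth of the members was similar at both ages, with a median of 3518 UMIs per cell in the old and 3558.5 UMIs in the young library. Among all barcodes, 9.46% in the old and 4.12% in the young library were over the mitochondrial limit. At the edge of the C1q rule, 67 old and 57 young members had exactly 1 C1q UMI, and 16 old and 14 young barcodes just outside it had 2. The old and young libraries shared 41 barcodes, against 5 to 17 for the other pairs of libraries, and 37 of these were members in both. Of those 37, 33 were in the same class in both libraries, and 2 of the 41 pairs differed at least 10-fold in UMIs. Where the shared barcodes come from was not tested. Leaving out the shared barcodes changed the share of T cells to 30.1% in the old and 11.8% in the young library. That of dendritic cells became 10.3% in the old and 20.1% in the young library. After removal of likely doublets, 2053 old and 1014 young members remained, and clusters of these were named from fixed marker genes. Ptprc, which encodes the CD45 used in the sort, was found in 73.9% of old and 63.8% of young T cells, and its lowest shares were in B cells, at 51.0% of old and 37.5% of young cells.

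The mix of leukocytes differed between the ages. T-cell-like cells, here called T cells, were 29.7% of the old members (609 cells, interval 27.7 to 31.7%) and 11.4% of the young members (116 cells, 9.55 to 13.6%). This made a difference of 18.2 percentage points, with an interval of 15.4 to 20.9. B-cell-like cells were 7.26% of old (149 cells) and 3.16% of young members (32 cells), a difference of 4.10 points with an interval of 2.46 to 5.61. Monocyte-like cells were 17.1% of old (352 cells) and 12.5% of young members (127 cells), a difference of 4.62 points with an interval of 1.94 to 7.16. The lymphocytes that carry antigen receptors and the monocytes thus took a larger share of the old library.

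The other classes took a smaller share of the old library. Dendritic-cell-like cells were 10.2% of old (209 cells) and 19.3% of young members (196 cells), a difference of -9.15 points with an interval of -12.0 to -6.45. At a finer cluster resolution 46 old and 70 young cells formed a macrophage-like cluster led by Retnla, and dendritic cells were 8.04% of old and 12.8% of young members, a difference of -4.78 points. Neutrophil-like cells were 12.0% of old (247 cells) and 20.4% of young members (207 cells), a difference of -8.38 points with an interval of -11.3 to -5.59. ILC2-like cells were 12.5% of old (256 cells) and 18.3% of young members (186 cells), a difference of -5.87 points. NK-like cells were 7.50% of old (154 cells) and 9.57% of young members (97 cells), a difference of -2.06 points whose interval ran from -4.30 to -0.0039. Since shares sum to the whole, a larger T cell share lowers the others. With T cells left out of the total, NK cells were 10.7% of old and 10.8% of young members, a difference of -0.137 points, and the ILC2 difference was -2.98 points with an interval, -6.34 to 0.27, that held 0. Monocytes then differed by 10.2 points. A further 29 old and 11 young cells were mast-cell- or basophil-like, and 48 old and 42 young cells of low depth, led by cell cycle genes, were left unnamed.

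**Figure D1:**
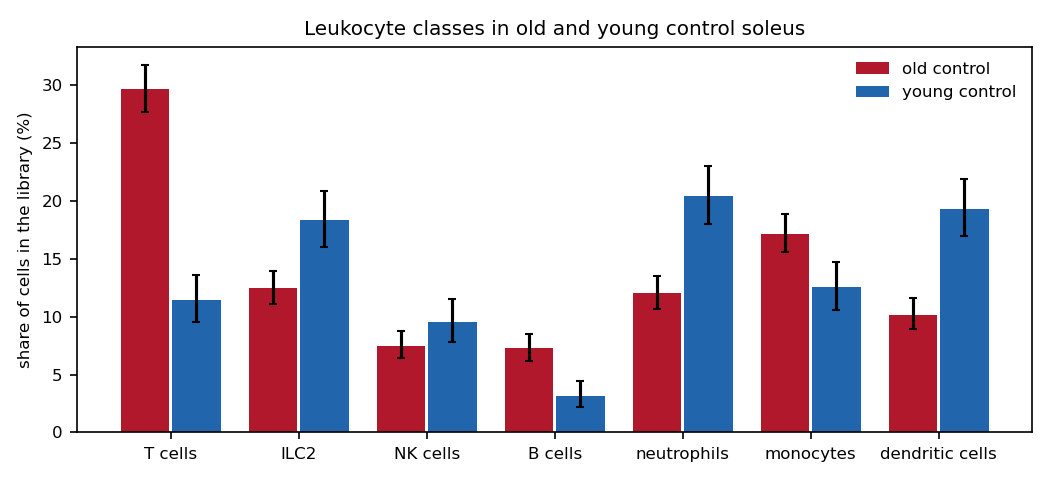
Share of each leukocyte class among members (y axis, percent of 2053 old and 1014 young cells), with the old control library left of the young control library. Error bars are exact 95% binomial intervals for counting error only, and the T cell bars, at 29.7% in old and 11.4% in young, lie farthest apart.

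Another way of counting, a gate on marker transcripts in each cell, was applied to all 6 libraries. By this gate the T cell share was 26.2% in old and 16.2% in young control muscle, a difference of 10.0 points. It was 15.3% in old and 4.74% in young muscle after HU. At reloading it was 6.62% in old and 5.84% in young muscle, where the interval of the difference, -1.37 to 2.89 points, held 0. Of the control cells gated as T cells, 441 of 538 old and 89 of 164 young cells were in T cell clusters. A further 59 old and 39 young cells were ILC2 by cluster, and 12 old and 14 young cells were NK cells. Over both control libraries, another 46 were in the unnamed cluster of low depth. B cells were the larger share in old muscle in all 3 pairs, by 3.68 points in controls, 3.38 after HU and 4.24 at reloading. Monocytes differed by 2.27 points in controls, with an interval of -0.13 to 4.51 that held 0, and by 4.48 and 5.38 points in the other pairs. Dendritic cells were the smaller share in old muscle in all 3 pairs, by -6.02, -5.56 and -7.64 points.

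For genes, UMIs were summed over a class in each library and scaled to the class total (counts per 1e6 UMIs, CPM). A gene was measured in a class when it had at least 50 UMIs over both libraries, and was past the fold when its level in old over that in young gave a log2 ratio of 1 or more, or of -1 or less. In T cells 9.06% of 4980 measured genes were past the fold towards old and 1.45% towards young. In ILC2 the shares were 2.62% towards old and 2.58% towards young of 2865 genes, and in NK cells 1.78% towards old and 2.46% towards young of 2194 genes. In neutrophils they were 7.49% towards old and 8.11% towards young of 1935 genes, in monocytes 6.98% towards old and 1.83% towards young of 5734 genes, and in dendritic cells 3.23% towards old and 2.64% towards young of 5537 genes. The median log2 ratio over all measured genes was 0.20 in T cells, -0.03 in ILC2, 0.05 in NK cells, -0.12 in neutrophils, 0.16 in monocytes and 0.12 in dendritic cells. These medians are the level against which single genes and lists are read. The split of calls moved with the scaling. With scaling by trimmed means (TMM) it was 273 genes towards old and 136 towards young in T cells, against 451 and 72 with the class total, 176 and 117 in neutrophils against 145 and 157, 250 and 177 in monocytes against 400 and 105, and 113 and 197 in dendritic cells against 179 and 146. Counted as UMIs per cell without any scaling, it was 277 towards old and 135 towards young in T cells, 660 and 29 in neutrophils, 1006 and 39 in monocytes, and 89 and 248 in dendritic cells. Without mitochondrial, ribosomal, haemoglobin and immunoglobulin genes in the total, it was 301 towards old and 118 towards young in T cells.

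Genes of the heat shock response were among the lowest of the old library. Hspa1a was among the 10 lowest in 5 of the 6 classes in which genes were ranked. Heat shock factors switch on this set of chaperones, which refold damaged proteins, when cells are warmed or stressed. Hspa1a (ENSMUSG00000091971, chr17:34969190-34972156 on the minus strand of GRCm38.p6), the stress-inducible Hsp70, had 332 UMIs in old and 884 UMIs in young T cells, or 142 CPM in old and 1738 CPM in young T cells. In ILC2 it stood at 41.0 CPM in old and 2138 CPM in young cells, in NK cells at 15.3 CPM in old and 2530 CPM in young cells, and in B cells at 81.0 CPM in old and 2256 CPM in young cells, where a single cell held 65% of the young UMIs. Monocytes had 115 CPM in the old and 976 CPM in the young library, and dendritic cells 506 CPM in the old and 3869 CPM in the young library. Neutrophils held few transcripts at either age, 15 UMIs in old and 35 UMIs in young cells, of which 83% came from 1 young cell.

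Expressed as log2 ratios, Hspa1a differed by -7.37 in NK cells (interval -8.59 to -6.38), -5.71 in ILC2, -4.80 in B cells, -3.62 in T cells, -3.08 in monocytes and -2.94 in dendritic cells. More cells held the transcript in the young library. After each cell was thinned to 1000 UMIs, Hspa1a was found in 9.32% of old and 29.6% of young T cells, 7 of 250 old and 41 of 177 young ILC2, 0.65% of old and 35.4% of young NK cells, and 27.6% of old and 57.3% of young dendritic cells. In neutrophils, which hold few chaperone transcripts, the shares were 1.33% in old and 2.91% in young, and this is the level against which free RNA in the suspension can be read.

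Other inducible chaperones followed Hspa1a. The cytosolic Hsp90 gene Hsp90aa1 differed by -3.14 in NK cells, -2.18 in B cells, -1.91 in T cells, -1.75 in ILC2, -1.73 in dendritic cells, -1.66 in monocytes and -0.72 in neutrophils. Hsph1, which encodes the Hsp110 cochaperone, ranged between -4.80 in NK cells and -2.71 in monocytes. Hspe1, the partner of the mitochondrial chaperonin, differed by -3.50 in NK cells, -2.21 in dendritic cells and -1.45 in ILC2, and Hspd1, the chaperonin itself, by -2.56 in NK cells and -0.95 in ILC2. The small heat shock protein gene Hspb1 was 18.4 CPM in old and 598 CPM in young dendritic cells, a log2 ratio of -5.02. Hspa8, the Hsp70 made by cells at rest, differed less, by -1.38 in NK cells, -0.63 in T cells and 0.20 in neutrophils, and Hspa5, the Hsp70 of the endoplasmic reticulum, by between -0.65 and -0.21. The Hsp40 cochaperone gene Dnajb1 differed by -1.50 in dendritic cells and -1.48 in ILC2, but by -0.73 in T cells, -0.58 in B cells and -0.37 in neutrophils. Its relative Dnaja1 ranged between -1.65 in NK cells and -0.21 in ILC2.

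The immediate early genes, transcription factors that cells induce soon after stimulation, were not uniformly lower. In T cells Fosb had 703 UMIs in old and 39 UMIs in young cells, 300.3 CPM in old and 76.7 CPM in young cells, with 44% of the young UMIs in 1 cell. In NK cells Jun had 16 UMIs in old and 76 in young cells (log2 ratio -2.87) and Atf3 14 UMIs in old and 69 in young cells (-2.92). Immediate early and heat shock genes formed a joint list. In T cells 25 were measured, 1 past the fold towards old and 4 towards young (median -0.07). In ILC2 4 of 25 were past it towards old and 6 towards young (median 0.17). In NK cells none of 23 was past it towards old and 9 towards young (median -0.35). Dendritic cells had 2 of 25 towards old and 6 towards young (median 0.14). Monocytes had none of 25 towards old and 6 towards young (median -0.27), and neutrophils 1 of 23 each way (median -0.37). The share of all measured genes towards young was 1.45% in T cells, 2.58% in ILC2 and 2.46% in NK cells. It was 2.64% in dendritic cells, 1.83% in monocytes and 8.11% in neutrophils. Towards old it was 9.06%, 2.62%, 1.78%, 3.23%, 6.98% and 7.49% in the same order. By the gate on marker transcripts, Hspa1a was also lower in old cells after HU, with log2 ratios of -3.45 in T cells, -3.61 in ILC2, -4.25 in monocytes and -2.73 in dendritic cells. At reloading the ratio was -2.33 in T cells, -0.08 in ILC2, 0.00 in monocytes and 0.55 in dendritic cells.

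The promoters of these chaperone genes are shown because they hold a sequence feature that the choice of cells did not use. Each line gives the 250 bases before the start site from RefSeq (GRCm38.p6), 5′ to 3′ on the gene's strand, with matches to the heat shock element, GAANNTTC or TTCNNGAA on either strand, in capitals.
Hspa1a, chr17:34972157-34972406, minus strand: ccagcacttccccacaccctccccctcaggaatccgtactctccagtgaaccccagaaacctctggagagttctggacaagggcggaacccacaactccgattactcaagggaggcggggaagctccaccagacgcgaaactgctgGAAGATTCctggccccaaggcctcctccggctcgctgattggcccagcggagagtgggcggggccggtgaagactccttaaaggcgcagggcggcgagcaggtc
Hsph1, chr5:149636337-149636586, minus strand: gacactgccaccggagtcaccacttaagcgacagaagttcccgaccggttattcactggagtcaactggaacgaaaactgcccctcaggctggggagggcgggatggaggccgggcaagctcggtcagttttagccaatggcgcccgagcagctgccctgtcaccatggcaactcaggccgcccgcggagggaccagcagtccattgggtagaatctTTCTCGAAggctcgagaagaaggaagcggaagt
Hspe1, chr1:55087898-55088147, plus strand: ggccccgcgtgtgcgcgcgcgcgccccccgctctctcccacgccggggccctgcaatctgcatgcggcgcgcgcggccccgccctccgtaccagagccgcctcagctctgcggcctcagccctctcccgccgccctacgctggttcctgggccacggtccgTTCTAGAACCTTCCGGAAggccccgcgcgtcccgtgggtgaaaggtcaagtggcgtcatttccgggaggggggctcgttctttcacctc
Hspb1, chr5:135887669-135887918, plus strand: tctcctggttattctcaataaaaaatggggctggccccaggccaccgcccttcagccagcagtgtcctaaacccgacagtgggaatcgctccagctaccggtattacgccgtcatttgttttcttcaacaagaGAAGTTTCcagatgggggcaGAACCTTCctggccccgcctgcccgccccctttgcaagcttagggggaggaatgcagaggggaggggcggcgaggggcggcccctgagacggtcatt
In Hspe1 the matches overlap. Over the 300 bases around the start, 8 of the 11 heat shock genes found in the promoter table (of 13 listed) had a match, as did 16.97% of all 27025 genes. A match is a description of the letters and does not show that a factor was bound.

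**Figure D2:**
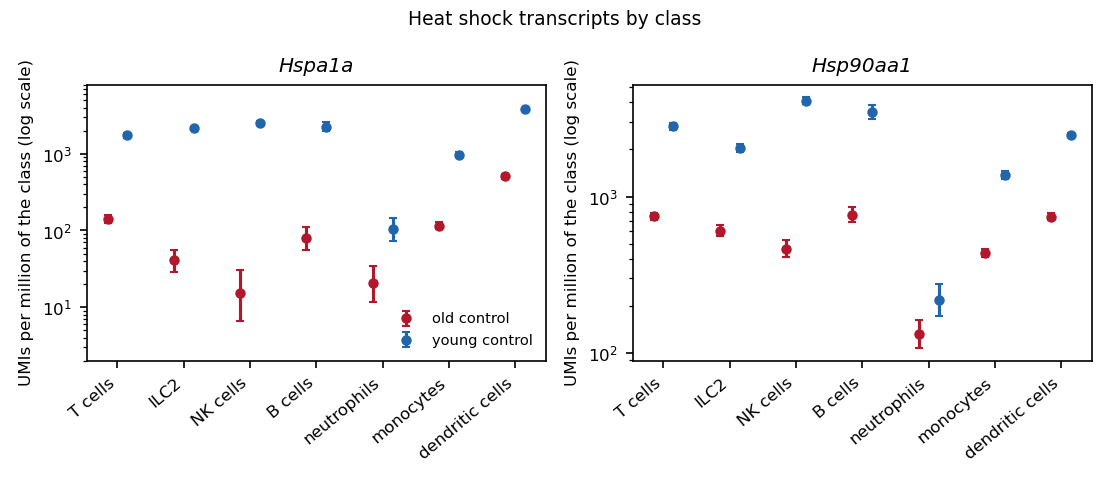
Level of Hspa1a and Hsp90aa1 in each leukocyte class (CPM of the class total, log axis), with the old control left of the young control and exact 95% Poisson intervals for counting error. For Hspa1a the young point lies above the old point in every class, with 2530 CPM in young NK cells against 15.3 CPM in old NK cells at the widest.

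T cells of old muscle carried more transcripts of cytotoxic effectors, the granule enzymes and chemokines of memory and killer T cells. Gzmk (ENSMUSG00000042385, chr13:113171608-113225908, minus strand), the granule protease granzyme K, had 413 UMIs in old and 6 UMIs in young T cells, 176 CPM in old and 11.8 CPM in young. Its log2 ratio was 3.90 with an interval of 2.77 to 5.36. A single cell held 4 of the 6 young UMIs, and after thinning Gzmk was found in 61 of 601 old T cells (10.2%) and in 2 of 115 young T cells (1.74%), against at most 0.65% of the cells of any other class. Nkg7, a granule protein, had 793 CPM in old and 179 CPM in young T cells (log2 ratio 2.15, interval 1.84 to 2.47). Thinned, it was in 36.4% of old and 7.83% of young T cells, against 0.44% of old and 0.58% of young neutrophils. Ccl5, a chemokine stored by memory cytotoxic cells, had 9719 CPM in old and 2793 CPM in young T cells (log2 ratio 1.80), and was in 42.3% of old and 19.1% of young thinned T cells.

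Of 18 cytotoxic effector genes, 15 were measured in T cells, and 12 of these were past the fold towards old, as were 9.06% of all measured genes, and none towards young (1.45% of all). Their median log2 ratio was 1.77. The lowest of those named past the fold was the cathepsin gene Ctsw, with 411 UMIs in old and 44 UMIs in young cells (log2 ratio 1.02), which fell under the fold with TMM scaling, at 0.83. The chemokine gene Ccl4 had 219 UMIs in old and 12 UMIs in young cells (log2 ratio 1.99), with 58% of the young UMIs in 1 cell, and its ratio was -2.27 when T cells were taken by the gate on marker transcripts. Under that gate Nkg7 was at 0.63 and Ctsw at 0.05 (interval -0.35 to 0.46). The cells it took as T cells were in T cell clusters for 441 of 538 old and 89 of 164 young cells. In the NK cluster were 12 old and 14 young of them, and in the unnamed cluster 46 over both libraries. The part of such other cells in these ratios was not tested. The inhibitory receptor gene Tigit had 440 UMIs in old and 26 UMIs in young T cells (log2 ratio 1.88), while Pdcd1, encoding PD-1, was at -0.25 (interval -0.68 to 0.20) and the exhaustion-related factor gene Tox at 0.44 (-0.23 to 1.18). Of 7 checkpoint genes measured, 2 were past the fold towards old, with a list median of 0.70.

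Genes of naive and recirculating T cells ran the other way or differed little. Ccr7, the receptor that guides T cells into lymph nodes, had 396 UMIs in old and 195 UMIs in young cells, 169 CPM in old and 383 CPM in young (log2 ratio -1.18). Dapl1, a gene of naive T cells, was at -1.69 (37 UMIs in old and 26 in young cells) and Satb1, a chromatin organiser, at -0.91. Il7r, the receptor for the survival cytokine interleukin 7, was at 0.10 and Klf2, a factor of recirculating cells, at -0.14. Of 12 naive genes measured, none was past the fold towards old (9.06% of all genes were) and 4 towards young (1.45% of all), with a median of -0.43.

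The clusters that made up the T cells differed between the ages, so a change in the mix of subsets and a change within a subset cannot be told apart from the class totals. The Gzmk-led cluster held 251 old and 26 young cells, the Cd163l1-led cluster 203 old and 26 young cells, and the Lef1-led cluster, of naive-like genes, 155 old and 64 young cells. Most old T cells were thus in the Gzmk-led and Cd163l1-led clusters, and most young T cells in the Lef1-led cluster. Within the Lef1-led cluster, 9 of 10 measured cytotoxic genes were past the fold towards old (median 1.80), beside 5.16% of all genes measured there, and none of 12 naive genes was past the fold (median -0.13). This cluster was itself mixed. At the finer resolution 76 old and 56 young cells formed an unnamed cluster led by Lef1, and 79 old and 8 young cells a T cell cluster led by Gzmm and Cd8b1. Within the Gzmk-led cluster the cytotoxic count was 9 of 14 (median 1.38), beside 13.8% of all genes. This cluster was mixed as well. At the finer resolution a T cell cluster led by Gzmk, with Cd8a and Cd8b1 among its leading genes, held 143 old and 4 young cells. Another, led by Tnfrsf4 with Cd4 among its leading genes, held 108 old and 22 young cells. Gated on Cd8a or Cd8b1 without Cd4, which took 207 old and 31 young cells, 11 of 15 cytotoxic genes were past the fold towards old (median 1.68), beside 12.1% of all genes. In these CD8 cells Gzmk had 277 UMIs in old and 6 in young (log2 ratio 3.13), Nkg7 was at 1.71, Ccl5 at 1.72 and Ccr7 at -1.31. In cells with Cd4 and without Cd8a or Cd8b1, 73 old and 18 young, Ccl5 had 7694 CPM in old and 1155 CPM in young cells, and Gzmk had 396 CPM in old cells and 0 UMIs in young cells, which allows a level of up to 38.1 CPM there.

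**Figure D3:**
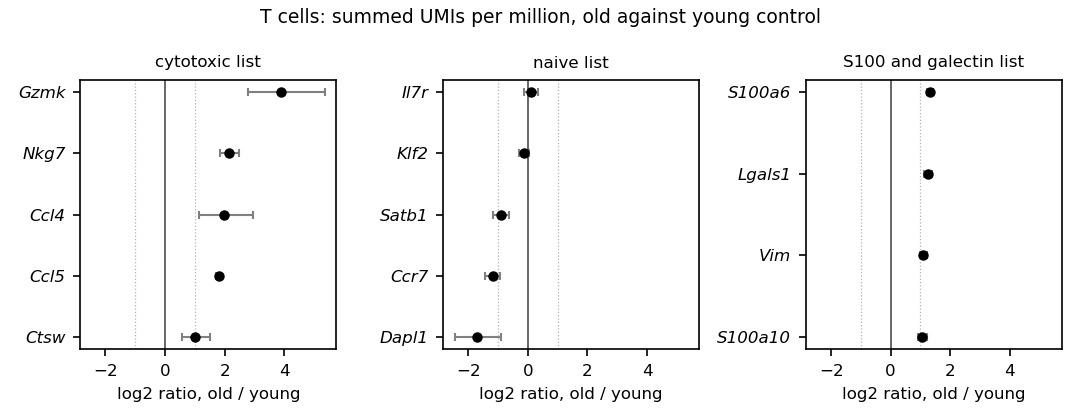
Log2 ratio of old over young control in T cells (x axis) for cytotoxic effector genes, naive and recirculating genes, and S100 and related genes, with exact 95% intervals for counting error. Gzmk lies farthest to the right at 3.90, and Ccr7 at -1.18 and Dapl1 at -1.69 lie past the fold on the left, as they did not at the finer cluster resolution (-0.42 and -0.50).

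At equal depth, with cells thinned to 1000 UMIs, the CD8 subset was 21.5% of old and 12.2% of young T cells, a difference of 9.29 points with an interval of 1.43 to 15.2. Without thinning it was 34.0% of old and 26.7% of young T cells, and the interval, -2.17 to 15.4 points, held 0. Cells with Cd4 were 5.16% of old and 6.96% of young T cells. Gamma delta T cells, an innate-like lineage with its own receptor chains, were 24.6% of old and 19.1% of young T cells. The interval of that difference, -3.28 to 12.6 points, held 0. Cells in none of these subsets were 48.8% of old and 61.7% of young thinned T cells, a difference of -13.0 points (interval -22.3 to -3.03). Without thinning they were 25.9% of old and 38.8% of young T cells. Their part in the CD8 difference was not tested. Foxp3, the factor of regulatory T cells, was found in 11 of 609 old and 1 of 116 young T cells at full depth. After thinning the counts were 5 of 601 old and 0 of 115 young cells, and a count of 0 allows up to 2.61% of young cells with a UMI at that depth. The gamma delta receptor gene Trdv4 had 635 CPM in old and 366 CPM in young T cells (log2 ratio 0.80), and the scavenger receptor gene Cd163l1 was at 0.97. Within the gamma delta gate, 168 old and 22 young cells, Trdv4 differed by 0.02. Of 10 regulatory T cell genes, 3 were past the fold towards young, as were 1.45% of all genes. Among these was Il1rl1, the receptor for interleukin 33, with 21 UMIs in old and 31 UMIs in young cells (log2 ratio -2.76). Gata3, the type 2 factor, was another, at -1.24. Il1rl1 and Gata3 are also marker genes of ILC2.

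The S100 and galectin group, small calcium-binding proteins and partners that are higher in activated and effector cells, was also higher in old T cells. S100a6 (ENSMUSG00000001025) had 3729 CPM in old and 1490 CPM in young T cells (log2 ratio 1.32) and was in 73.0% of old and 39.1% of young thinned cells. Lgals1, encoding galectin 1, differed by 1.26, the filament gene Vim by 1.10 and S100a10 by 1.06. Of 11 measured, 6 were past the fold towards old (9.06% of all genes were), with a median of 1.06, and 2 with TMM scaling. At the finer cluster resolution, which left the unnamed Lef1-led cells out of the class, S100a6 was at 0.48, Lgals1 at 0.48, Vim at 0.31, S100a10 at 0.43, Ccr7 at -0.42 and Dapl1 at -0.50 (interval -2.04 to 1.49). In CD8 cells S100a6 differed by 3.35. There 9 of 10 genes of the list were past the fold towards old (median 2.25), as were 12.1% of all genes. In gamma delta cells, by contrast, S100a6 differed by 0.27 and 1 of 10 was past the fold (8.36% of all genes were).

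Class I presentation differed little at the surface molecules. B2m was 2254 CPM in old and 2243 CPM in young T cells (log2 ratio 0.01), H2-K1 was at 0.17 and H2-D1 at 0.33. Of 12 genes of the group 3 were past the fold towards old (median 0.60), among them the immunoproteasome subunit gene Psmb9 with 177 UMIs in old and 16 UMIs in young cells (log2 ratio 1.27). Of 17 interferon-stimulated genes 5 were past the fold towards old (median 0.47). Among these was Ly6a, encoding Sca-1, with 414 UMIs in old and 26 UMIs in young cells (log2 ratio 1.79), whereas Ifi27l2a was at 0.37. Of all genes measured in T cells, 9.06% were past the fold towards old, with a median of 0.205. By the gate, Ly6a was at 0.22 and Psmb9 at 0.38. The highest ratio in T cells was that of Podnl1, a small leucine-rich protein, with 88 UMIs in 66 old cells and 1 UMI in young cells (4.26, interval 1.74 to 9.58). Rln3, a relaxin gene, had 183 UMIs in old and 5 UMIs in young cells (2.99, and 0.88 by the gate), and the protease gene Adam19 124 UMIs in old and 4 UMIs in young cells (2.75). The receptor genes themselves were close, with Trac at 0.06 and Cd3e at 0.59.

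Among the ILC2 genes with the lowest ratios was Il5 (ENSMUSG00000036117, chr11:53720794-53725106, plus strand), the cytokine that supports eosinophils. It had 842 UMIs in old and 1895 UMIs in young ILC2, 908 CPM in old and 2887 CPM in young, a log2 ratio of -1.67 with an interval of -1.79 to -1.55. Thinned, Il5 was found in 20.8% of old and 45.8% of young ILC2. Among T cells, the class nearest to ILC2, it was in 0.17% of old and 5.22% of young cells. The costimulator gene Icos had 177 UMIs in old and 309 UMIs in young ILC2 (log2 ratio -1.30) and was at -0.63 by the gate. The circadian factor gene Hlf had 37 UMIs in old and 80 in young cells (-1.61). At the finer resolution ILC2 formed a cluster led by Il5 and Il13, of 123 old and 120 young cells. The other, led by Dyrk3 and Arg1, held 133 old and 66 young cells. For the ILC2 ratios here and below, a change in this mix and a change within a cluster cannot be told apart.

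Other type 2 genes differed less. Il13, the second type 2 cytokine, had 525 CPM in old and 584 CPM in young ILC2, a log2 ratio of -0.15 whose interval, -0.35 to 0.04, held 0. The growth factor gene Areg was at -0.42, Gata3 at -0.46, the interleukin 33 receptor gene Il1rl1 at -0.45, the lineage factor gene Rora at -0.48, the neuropeptide gene Calca at -0.52 and Arg1, encoding arginase 1, at 0.43. Of 18 ILC2 effector and alarmin receptor genes, none was past the fold towards old (2.62% of all genes were) and 2 towards young (2.58% of all), with a median of -0.42 beside -0.03 for all genes. By the gate on marker transcripts, Il5 was higher in old ILC2 in the other treatments, with a log2 ratio of 1.78 after HU and 1.32 at reloading.

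Several transcription factors and early response genes were among the highest in old ILC2. Jund, an AP-1 subunit, had 2028 UMIs in old and 486 UMIs in young cells (log2 ratio 1.56), and was in 80.0% of old and 41.2% of young thinned cells. Egr1, an early growth response factor, had 142 UMIs in old and 31 in young cells (1.70), and was at 0.41 by the gate. The phosphatase gene Dusp2 differed by 1.87, the small Maf factor gene Maff by 1.63, Ier3 by 1.12 and Nfkbia, the inhibitor of NF-kB, by 0.61. Ly6c1 had 160 UMIs in old and 23 in young cells (2.30), the interferon-induced chemokine gene Cxcl10 100 UMIs in old and 9 in young cells (2.97), and Gramd3 70 UMIs in old and 7 in young cells (2.82). Of the ILC2, 59 of 256 old and 39 of 186 young cells also passed the T cell gate. Old ILC2 held 17479 haemoglobin UMIs and young ILC2 19, nearly all from 2 old cells. Those UMIs were part of the old class total.

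The granule and killing genes of NK cells lay within the fold between the ages. Gzma, encoding granzyme A, had 11144 CPM in old and 9042 CPM in young NK cells (log2 ratio 0.30), Ccl5 was at 0.37, Nkg7 at 0.28, Prf1, encoding the pore-forming perforin, at 0.25, Gzmb at -0.20 and Fasl at 0.64. Of 16 cytotoxic genes measured, none was past the fold towards old (1.78% of all genes were) and 3 towards young (2.46% of all), with a median of 0.27. The genes past the fold were secreted factors. The chemokine gene Ccl3 had 46 UMIs in old and 82 in young cells (log2 ratio -1.46), Ccl4 370 UMIs in old and 531 in young cells (-1.14), and Ifng, encoding interferon gamma, was at -1.08. By the gate Ccl3 was at -0.34, and without the cell richest in it Ccl4 was at -0.90.

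Ncr1 (ENSMUSG00000062524), the activating receptor NKp46, had 140 UMIs in old and 42 UMIs in young NK cells, 268 CPM in old and 124 CPM in young (log2 ratio 1.11, interval 0.61 to 1.65). Thinned, it was in 24.8% of old and 6.25% of young NK cells. The lineage factor gene Eomes was at -0.61 and Ly6c2, a gene of mature NK cells, at 0.83. Of 13 NK maturation genes none was past the fold towards old and 1 towards young (median 0.17). Of all genes measured in NK cells, 1.78% were past the fold towards old and 2.46% towards young. S100a6 differed by 1.28 and Anxa1, the annexin of the same list, by 1.73, with Lgals1 at 0.57. In that list 3 of 11 genes were past the fold towards old (median 0.57), as were 1.78% of all genes. Of 7 interferon-stimulated genes, Slfn2 at 1.01 and Ifi47 at 1.09 were past the fold towards old, and Slfn2 was under it in several settings, as low as 0.74. Among the highest ratios were 3 genes with few UMIs. Grk6, a receptor kinase gene, had 45 UMIs in old and 8 in young cells (1.87), Lgals3bp 44 in old and 8 in young cells (1.84), and the cytokine signalling suppressor gene Socs2 42 in old and 8 in young cells (1.77).

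B cells numbered 149 in old and 32 in young muscle. Because the young library held fewer than 50, genes past the fold were not counted and only levels and list medians are given. The antigen receptor component Cd79a had 3331 CPM in old and 2974 CPM in young B cells (log2 ratio 0.16) and the adaptor Bank1 was at 0.78. Ighm, the IgM heavy chain, had 1479 CPM in old and 2266 CPM in young B cells (-0.62), Ccr7 was at -0.59 and Foxp1 at 0.34. The median of 11 follicular B cell genes was 0.21, beside 0.03 for all genes. Class II presentation was also close, with Cd74, the invariant chain, at 0.32 and H2-Aa at 0.35, and a median of 0.31 over 10 genes.

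Single cells held many of the transcripts that differed in B cells. Igha, the IgA heavy chain, had 1400 UMIs in old and 6 in young B cells, and Jchain, which joins IgA units, 1271 in old and 5 in young, and in each library these came from 1 cell. S100a6 had 260 UMIs in old and 26 UMIs in young B cells (log2 ratio 1.21), with 54% of the old and 88% of the young UMIs in 1 cell. Ahnak had 118 UMIs in old and 12 in young cells (1.19), with 58% of the young ones in 1 cell, the glycolytic gene Pkm was at 1.30 and Vim at 1.02. Igkc, the kappa light chain, was at 0.51. Apoe, an apolipoprotein that macrophages also make, had 87 UMIs in old and 53 in young B cells (-1.39), with 40% of the young ones in 1 cell. The summed monocyte markers in B cells were 470 CPM in the old and 1747 CPM in the young library, whose part in the Apoe level was not tested.

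Neutrophils of old muscle carried transcripts of the secondary granules that neutrophils fill while they mature in bone marrow. Ngp (ENSMUSG00000032484, chr9:110419747-110423012, plus strand), neutrophilic granule protein, had 2818 UMIs in old and 18 UMIs in young neutrophils, 3887 CPM in old and 53.9 CPM in young. Its log2 ratio was 6.17 with an interval of 5.51 to 6.93. Thinned, Ngp was in 13.8% of old and 1.74% of young neutrophils, against at most 1.497% of the cells of any other class. Camp, the cathelicidin precursor, had 760 UMIs in old and 0 UMIs in young neutrophils, a log2 ratio of at least 6.87 against a floor of 3 counts in the young class. Lcn2, the iron-binding lipocalin 2, had 5298 CPM in old and 1124 CPM in young neutrophils (log2 ratio 2.24), and the surface protein gene Cd177 had 338 UMIs in old and 14 UMIs in young cells (3.47).

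Genes that neutrophils carry throughout maturity were closer. S100a8, a subunit of calprotectin, was at 0.31 and S100a9, its partner, at 0.46, while the resistin-like gene Retnlg had 23308 CPM in old and 11890 CPM in young cells (0.97). Cxcr2, the receptor for neutrophil chemokines, was at -0.75, Cxcr4, the receptor that holds and recalls neutrophils to marrow, at -0.82, and G0s2 at -0.56. Of 15 granule and maturation genes measured, 5 were past the fold towards old (7.49% of all genes were) and none towards young (8.11% of all), with a median of 0.71.

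Cytokine and chemokine genes lay on the other side. Thbs1, encoding thrombospondin 1, had 344 UMIs in old and 1280 UMIs in young neutrophils, 474 CPM in old and 3836 CPM in young (log2 ratio -3.02). It was in 24.9% of old and 75.0% of young thinned neutrophils. The chemokine genes Cxcl3 (25 UMIs in old and 75 in young cells, -2.70) and Ccl3 (25 in old and 56 in young cells, -2.28) were past the fold, as were the membrane protein gene Basp1 (-2.82) and the lectin receptor gene Clec4d (-1.40, and -0.87 by the gate). Cxcl2 was at -0.93 and Il1b, encoding interleukin 1 beta, at 0.09. Of 11 cytokine and chemokine genes, none was past the fold towards old (7.49% of all genes were) and 5 towards young (8.11% of all), with a median of -0.93.

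Interferon-stimulated genes were higher. Interferons act through receptors on most cells and switch on antiviral genes by way of STAT and IRF factors. Ifit3, an antiviral RNA-binding protein, had 177 UMIs in old and 12 UMIs in young neutrophils (log2 ratio 2.76), Gbp2, a guanylate-binding protein, 91 UMIs in old and 4 UMIs in young cells (3.39), Isg15, a ubiquitin-like modifier, 853 UMIs in old and 184 UMIs in young cells (1.09), and Ifitm3, which blocks virus entry, 2470 UMIs in old and 310 UMIs in young cells (1.87). The immunoproteasome subunit gene Psmb8 differed by 2.23 and was at 0.93 by the gate. Of 17 interferon-stimulated genes 10 were past the fold towards old and none towards young, with a median of 1.09 beside -0.12 for all genes. Of all genes 7.49% were past the fold towards old and 8.11% towards young.

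Promoters of 3 of these genes are shown, in the same form as above, with matches to an interferon-stimulated element in capitals. The motif searched was GAAA repeated after any 2 bases, or TTTC repeated in the same way, which is the same motif on the other strand.
Ifit3, chr19:34583279-34583528, plus strand: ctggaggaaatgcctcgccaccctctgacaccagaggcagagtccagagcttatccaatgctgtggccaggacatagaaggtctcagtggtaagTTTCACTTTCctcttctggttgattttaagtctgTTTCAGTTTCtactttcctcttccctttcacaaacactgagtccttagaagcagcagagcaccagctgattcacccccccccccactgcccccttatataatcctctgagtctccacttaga
Isg15, chr4:156200819-156201068, minus strand: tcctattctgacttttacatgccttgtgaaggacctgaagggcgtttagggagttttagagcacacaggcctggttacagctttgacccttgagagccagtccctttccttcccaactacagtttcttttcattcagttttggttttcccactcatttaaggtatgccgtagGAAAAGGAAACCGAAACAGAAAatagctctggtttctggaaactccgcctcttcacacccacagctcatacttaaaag
Gbp2, chr3:142620413-142620662, plus strand: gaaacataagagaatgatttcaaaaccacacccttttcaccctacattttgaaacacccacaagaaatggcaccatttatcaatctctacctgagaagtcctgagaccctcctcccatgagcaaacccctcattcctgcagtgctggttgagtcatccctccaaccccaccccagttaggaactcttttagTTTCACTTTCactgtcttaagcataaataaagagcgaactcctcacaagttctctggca
Of the 34 interferon-stimulated genes listed, 25 were in the promoter table and 16 had a match within 300 bases, as did 3.99% of all genes. In Isg15 the matches overlap.

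Neutrophils fell into clusters that the ages held unequally. The G0s2-led cluster had 105 old and 189 young cells and the Ngp-led cluster 142 old and 18 young cells, so most old cells were in the Ngp-led and most young cells in the G0s2-led cluster. Within the G0s2-led cluster no granule gene of 12 was past the fold, and no interferon-stimulated gene of 8 (median 0.02), while 2 of 10 cytokine genes were past the fold towards young. Of all genes measured in that cluster, 2.82% were past the fold towards old and 5.81% towards young. Within the Ngp-led cluster 4 of 15 granule genes were past the fold towards old (median 0.29), beside 14.7% of all genes towards old and 7.81% towards young. Of 17 interferon-stimulated genes there, 2 were past the fold towards old and 1 towards young (median -0.26), with Ifit3 at 0.13 and Isg15 at -0.56.

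Some genes differed in both clusters. Wfdc17, a small secreted protein gene, had 6188 UMIs in old and 323 UMIs in young neutrophils (log2 ratio 3.14), with 3.27 in the G0s2-led and 3.87 in the Ngp-led cluster. Thinned, it was in 80.9% of old and 31.4% of young neutrophils. Thbs1 was at -1.75 in the G0s2-led and -2.28 in the Ngp-led cluster, and Basp1 at -2.27 and -2.61. Ifitm6 was at 2.95 over the class, with 1.48 and 2.45 in these clusters, and Anxa1 at 2.43, with 1.52 and 2.65. Igfbp6, a binding protein of insulin-like growth factors, had 154 UMIs in old and 4 UMIs in young cells (4.15), with 5.29 in the G0s2-led cluster and 1.75 (interval -0.13 to 4.82) in the Ngp-led cluster. The median depth was 2343 UMIs in old and 1483 UMIs in young neutrophils.

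**Figure D4:**
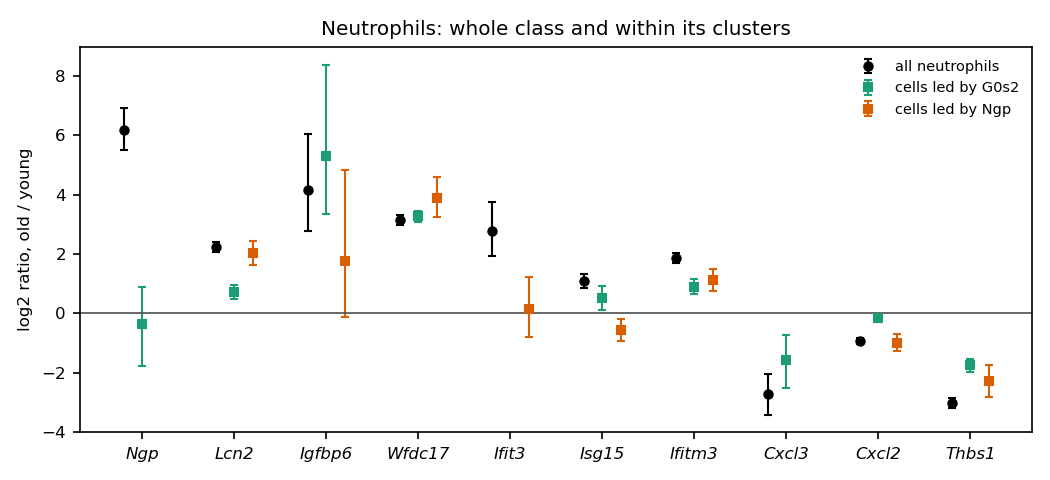
Log2 ratio of old over young control (y axis) for neutrophil genes (x axis) over the whole class and within the G0s2-led and Ngp-led clusters, with 95% intervals for counting error, and with points left out where a library had 0 UMIs. Wfdc17 lies above 0 and Thbs1 below 0 in all 3 sets, whereas the ratio of Isg15, 1.09 over the class, is 0.53 and -0.56 within the clusters.

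Several genes were many times higher in old monocytes. Saa3 (ENSMUSG00000040026), serum amyloid A3, had 573 UMIs in old and 8 UMIs in young monocytes, 184 CPM in old and 9.02 CPM in young (log2 ratio 4.35), with 88% of the young UMIs in 1 cell. Thinned, it was in 6.59% of old monocytes and in 0 of 125 young monocytes, which allows up to 2.40% of young cells with a UMI at that depth. Lrg1, a secreted glycoprotein gene, had 483 UMIs in old and 11 UMIs in young cells (3.64), Lcn2 959 UMIs in old and 30 UMIs in young cells (3.18), Prtn3, encoding proteinase 3, 289 UMIs in old and 11 UMIs in young cells (2.90) and Ifitm1 1768 UMIs in old and 76 UMIs in young cells (2.73). Hp, encoding haptoglobin, had 1160 CPM in old and 446 CPM in young cells (1.38) and was in 53.3% of old and 23.2% of young thinned monocytes. Some of these genes are also made by neutrophils, and the summed neutrophil markers in monocytes were 13305 CPM in the old and 7313 CPM in the young library. Their part in these ratios was not tested.

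Monocytes circulate as classical cells, which carry Ly6C and enter tissue, and nonclassical cells, which patrol vessels. Ly6c2 was at 0.28 and Ccr2, the receptor that brings classical monocytes into tissue, at 0.56, while Chil3, a chitinase-like gene, was at 1.33 and F13a1 at 1.02. Of 14 classical genes 3 were past the fold towards old (median 0.38), as were 6.98% of all genes. Of the nonclassical genes, Cd36, a scavenger receptor, had 233 UMIs in old and 238 UMIs in young cells, 74.7 CPM in old and 268 CPM in young (-1.84), Treml4 was at -0.79, Ace at -0.48 and Cx3cr1, the fractalkine receptor, at 0.82, and 1 of 13 was past the fold towards young (median -0.48), as were 1.83% of all genes. The nonclassical, Cd300e-led cluster held 112 old and 56 young cells, and the Chil3-led cluster 240 old and 71 young cells. Within the Cd300e-led cluster the nonclassical median was 0.16, with Cd36 at -0.85. Summed endothelial markers in monocytes were 97.2 CPM in the old and 277 CPM in the young library. Their part in the Cd36 ratios was not tested. S100a9 was at 1.23, S100a8 at 0.85 and Lgals1 at 1.30 (0.64 without any C1q UMI and 0.71 with thinned cells), and 3 of 13 genes of the S100 and galectin list were past the fold towards old (median 0.71).

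Within the clusters, Lcn2 was at 3.22 in Chil3-led and 2.59 in Cd300e-led monocytes, Ifitm1 at 3.06 and 2.27, and Hp at 1.17 and 2.07, so that these ratios were present in both. Ly6a had 134 UMIs in old and 3 UMIs in young monocytes (3.67). When no C1q UMI was allowed the clusters were drawn anew, and Ly6a then had 221 UMIs in old and 69 UMIs in young monocytes, a ratio of -0.04. Of 23 interferon-stimulated genes, 4 were past the fold towards old (median 0.46), as were 6.98% of all genes (median 0.16). In Chil3-led cells the median of 22 of these genes was 0.22, beside 0.18 for all genes there. In Cd300e-led cells that of 7 was 1.10, beside 0.09 for all genes there.

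Among the 10 lowest genes of old monocytes were genes that protect against oxidants. The glutathione synthesis genes Gclm (ENSMUSG00000028124, 387 UMIs in old and 475 UMIs in young cells, 124 CPM in old and 536 CPM in young) and Gclc were at -2.11 and -2.22, and Srxn1, encoding sulfiredoxin, was at -1.92. These genes were named for their rank and were not a list of their own. Gclm was at -2.25 in Chil3-led and -2.04 in Cd300e-led cells. The chemokine gene Cxcl3 had 105 UMIs in old and 277 UMIs in young monocytes (-3.21), Cxcl2 was at -1.30 and Il1b at -0.34, whereas Tnf, with 117 UMIs in old and 13 UMIs in young cells, was at 1.36 and at 0.84 by the gate. Spic, a factor of macrophages that recycle iron, had 18 UMIs in old and 56 in young monocytes (-3.45).

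Srxn1 was also among the 10 lowest genes of old dendritic cells, together with Retnla and Hmox1. Retnla (ENSMUSG00000061100), a resistin-like protein induced by type 2 cytokines, had 1292 UMIs in old and 7195 UMIs in young dendritic cells, 699 CPM in old and 3565 CPM in young (log2 ratio -2.35). Thinned, it was in 7.54% of old and 23.8% of young cells. Hmox1, the haem-degrading oxygenase, had 808 UMIs in old and 4333 UMIs in young cells (-2.30) and was in 21.6% of old and 49.7% of young thinned cells. Srxn1 was at -2.34, the chemokine gene Cxcl2 at -2.28, and Aldh1a2, which makes retinoic acid, had 11 UMIs in old and 89 UMIs in young cells (-2.89). Ccl17, a chemokine that draws type 2 T cells, had 243 UMIs in old and 914 UMIs in young cells (-1.78), and the ratio was 1.72 after HU by the gate. Macrophages also express Hmox1 and Retnla, and 7 macrophage transcripts measured in dendritic cells had a median of -0.52, with 2 past the fold towards young (2.64% of all genes were). At the finer resolution a macrophage-like cluster led by Retnla held 46 old and 70 young cells. The dendritic class then held 165 old and 130 young cells, with Retnla at -0.995.

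Other genes were higher in old dendritic cells. Ccl5 had 495 UMIs in old and 43 UMIs in young cells (3.65), Cd7 345 UMIs in old and 50 in young cells (2.91), and Plac8 512 UMIs in old and 117 in young cells (2.26). Plac8 was in 17.1% of old and 2.70% of young thinned cells. Lymphocytes also make Ccl5 and Cd7. Summed T cell markers in dendritic cells were 92.5 CPM in old (0 of 14 at 0) and 6.44 CPM in young (6 of 14 at 0), and summed B cell markers 166 CPM in old and 37.2 CPM in young. Their part in these ratios was not tested. Ifitm1 was at 2.28 and at -0.18 by the gate. Lgals3bp and the nucleic acid sensor gene Zbp1 each had 55 UMIs in old and 15 in young cells, 29.7 CPM in old and 7.43 CPM in young. Of 15 interferon-stimulated genes 6 were past the fold towards old (median 0.83), beside 3.23% of all genes, with Ifitm3 at 0.93.

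Class I antigen processing followed, with the immunoproteasome genes Psmb8 at 1.10 and Psmb9 at 1.30. Psmb8 was under the fold by the gate (0.83), with TMM scaling (0.98) and per cell without scaling (0.88). Of 11 class I genes 3 were past the fold towards old (median 0.66), as were 3.23% of all genes. Class II presentation did not stand apart in its main chains. Cd74 had 44945 CPM in old and 41602 CPM in young cells (0.11) and H2-Aa was at 0.11, with 2 of 11 genes past the fold towards old (median 0.11). Within the Retnla- and Mgl2-led cluster, of 145 old and 148 young cells, 6 of 13 interferon-stimulated genes were past the fold towards old (median 0.80, 3.74% of all genes), and within the Ifi205- and Clec9a-led cluster, of 64 old and 48 young cells, 2 of 7 (median 0.74, 4.54% of all genes). Plac8 was at 2.21 and 2.82 in these clusters, Ccl5 at 3.66 and 5.93, Hmox1 at -2.07 and -2.76, and Hspa1a at -2.79 and -3.27. Ccl17 was at -2.89 in the Retnla-led and -0.37 in the Clec9a-led cluster.

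Conventional dendritic cells divide into type 1 cells, which cross-present to CD8 T cells, and type 2 cells, which prime CD4 T cells. The type 1 genes were above the median of all genes without any past the fold: Wdfy4, needed for cross-presentation, was at 0.92, the lectin receptor gene Clec9a at 0.83 and the lineage factor gene Irf8 at 0.79, with a median of 0.75 over 9 genes. The Clec9a-led cluster held 64 of 209 old and 48 of 196 young dendritic cells. Within it the median of these genes was 0.28, beside 0.15 for all genes. There 1 of 9 was past the fold towards old, as were 4.54% of all genes. In the Retnla-led cluster 3 of 6 measured were past the fold towards old (median 0.76), beside 3.74% of all genes there. The type 2 lectin genes Cd209a and Mgl2 were at -0.33 and -0.43. Of 11 type 2 genes 1 was past the fold towards old and 1 towards young (median -0.24). Of all genes measured in dendritic cells, 3.23% were past it towards old and 2.64% towards young. Of 9 genes of mature, migrating dendritic cells 2 were past the fold towards old (median 0.27), as were 3.23% of all genes. Ccr7 was at -0.65, and Fscn1, an actin bundler, had 85 UMIs in old and 8 in young cells (3.54), with 95% of the old UMIs in 1 cell and a ratio of -0.46 without the richest cells. Summed fibroblast markers were 1663 CPM in the old and 742 CPM in the young dendritic cells.

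**Figure D5:**
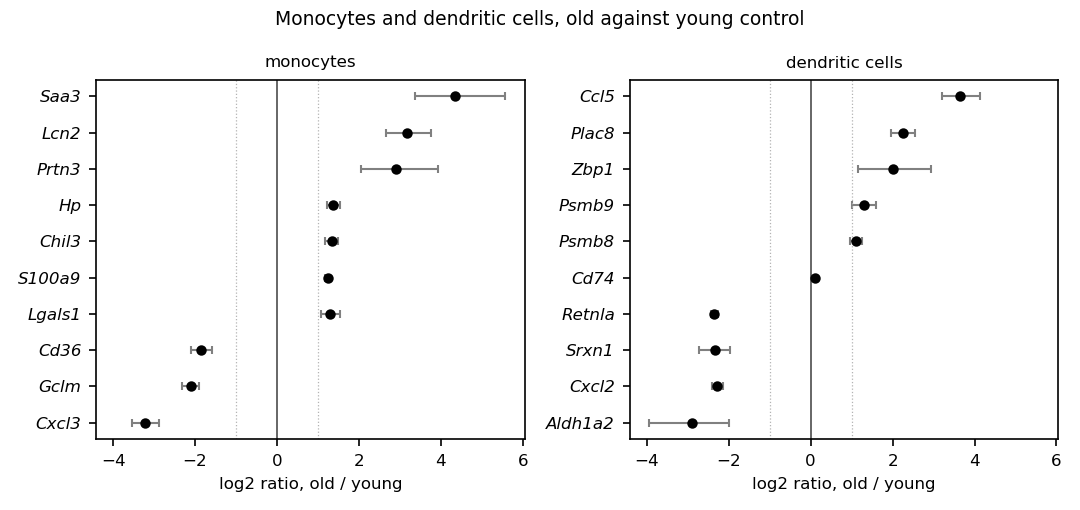
Log2 ratio of old over young control (x axis) for named genes of monocytes and of dendritic cells, with exact 95% intervals for counting error. Saa3 at 4.35 in monocytes and Ccl5 at 3.65 in dendritic cells lie to the right, and Cxcl3 at -3.21 in monocytes and Retnla at -2.35 in dendritic cells lie to the left.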

How the data were processed

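Solei were pooled per age and treatment, CD45+ DAPI- cells were sorted, and libraries were made with the 10x Genomics 3′ kit. Per the submitters' processing notes, the authors used Cell Ranger 3.1.0 and Seurat with mm10. The deposited matrices hold whole-number UMI counts per gene and barcode, not normalized, with 1 pooled library for each group. Total UMIs were 15765710 in the old and 10605650 in the young control library.

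Members were chosen by the rule given at the opening. Doublets were scored with Scrublet and the highest 0.8% per 1000 barcodes were marked, 68 old and 22 young barcodes. Members were clustered with Seurat 5.3.0 (2000 variable genes, 30 principal components, resolution 0.8) in R 4.3.3, and clusters were named from fixed markers. Rebuilt names can differ from those of the study. Sums, exact intervals (Clopper-Pearson, Newcombe, Poisson ratio) and figures were made with scipy 1.17.1 and matplotlib 3.10.9 in Python 3.11.15, on arrays of numpy 2.4.6 and tables of pandas 2.3.3, and TMM factors with edgeR 4.0.16. The summing and ratio steps were tested on simulated data. Named genes were the 10 highest and 10 lowest ratios per class found in at least 10% of the cells of the higher library, without receptor segments, ribosomal, mitochondrial, haemoglobin and predicted genes, together with fixed rules for each list and for markers. Genes added to these were chosen after their values were seen, namely the chaperone genes in classes that do not rank them, Foxp3 and Ifng. Members, lists and tests were chosen with earlier results of these data known. A result that is withheld is not reported here.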

Additional observations from a re-analysis of the deposited data

Results flagged for a closer look

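By the gate on marker transcripts, the difference between the ages had another sign than in the control pair for neutrophils in both other treatments, and for ILC2 and NK cells after HU only. Each is a single library against a single library, and the difference between treatments was not tested. Neutrophils were 9.01% of old and 18.6% of young control members, a difference of -9.63 points, but 14.3% of old and 8.01% of young members after HU (6.28 points) and 15.6% of old and 4.43% of young members at reloading (11.2 points). ILC2 differed by -5.10 points in controls and by 1.34 points after HU, with 8.34% in old and 6.998% in young and an interval, -1.02 to 3.63, that held 0. At reloading the difference was -2.35 points. NK cells by the gate were 2.29% of old and 3.65% of young control members (-1.36 points), and 8 of 1175 old and 0 of 886 young members after HU (0.68 points), where 0 cells allow a share of up to 0.339%. At reloading they differed by -0.54 points. HU and reload libraries were sequenced in other runs than the controls, so treatment and run cannot be told apart. After HU the gate left 38.3% of old and 59.5% of young members without a class. In controls it took 84 of the 251 cells of the NK cluster as NK cells. The part of this in the differences was not tested.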

How the results depend on the processing

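Each age had 1 library, so leaving out a replicate was not possible and p-values were not computed. No paired analysis was possible because each group has 1 library and so 1 replicate number. Depth limits the genes that could be compared to those with at least 50 UMIs, and B cells, with 32 in the young library, gave no count of genes past the fold. Causes of the changes below were not tested. Leaving out barcodes present in both libraries was chosen after seeing the data. It kept all 122 of the compared genes that were past the fold beyond it, as did resolution 0.4. Of 184 genes compared, 114 of those 122 stayed past the fold with TMM scaling, 113 per cell without scaling, 111 at resolution 1.6 and 114 without any C1q UMI, and 98 of 118 by the gate.

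All differences in share kept their sign, but that of NK cells was -0.137 points with T cells left out of the total and -0.131 with cells over the C1q limit in it (interval -1.68 to 1.33), and the ILC2 intervals held 0 in both (-6.34 to 0.27 and -3.79 to 0.15). By the gate the difference was 10.0 points for T cells and -6.02 for dendritic cells. With cells over the C1q limit in the total it was -1.78 for ILC2, -3.46 for neutrophils and -4.24 for dendritic cells. With T cells left out it was -2.98 for ILC2, 6.76 for B cells and 10.2 for monocytes. At resolution 1.6 it was -4.78 for dendritic cells, and T cells were 26.0% of old and 5.92% of young members (20.0 points). That resolution left 76 old and 56 young cells of an unnamed Lef1-led cluster out of the T cells.

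Counts of genes past the fold, towards old then towards young, moved with the minimum of UMIs because other genes are then tested. With at least 20 UMIs they were 993 and 167 in T cells, 273 and 237 in ILC2, 217 and 163 in NK cells, 326 and 359 in neutrophils, 799 and 232 in monocytes and 442 and 312 in dendritic cells. With at least 200 UMIs they were 87 and 20 in T cells, 14 and 17 in ILC2, 5 and 15 in NK cells, 47 and 43 in neutrophils, 95 and 40 in monocytes and 32 and 60 in dendritic cells. With cells thinned to 1000 UMIs they were 162 and 26 in T cells, 28 and 26 in ILC2, 13 and 19 in NK cells, 55 and 63 in neutrophils, 59 and 40 in monocytes and 33 and 34 in dendritic cells. With TMM factors they were 273 and 136 in T cells, 250 and 177 in monocytes, and 113 towards old in dendritic cells. Per cell without depth scaling they were 277 and 135 in T cells, 660 and 29 in neutrophils, 1006 and 39 in monocytes and 89 and 248 in dendritic cells. By the gate the count towards old was 285 in T cells, 82 in neutrophils and 58 in dendritic cells. In T cells the count towards young was 139 at resolution 1.6, 118 without mitochondrial, ribosomal, haemoglobin and immunoglobulin genes in the total, and 43 without the richest cell for each gene.

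List medians of immediate early and heat shock genes changed sign in T cells without the richest cells (0.27), in monocytes per cell (0.069) and in dendritic cells per cell (-0.0756) and thinned (-0.17). Per cell, the neutrophil granule median was 1.57, the cytokine median -0.0605 and the interferon median 1.958, and thinned the cytokine median was -0.22. Among named genes, Ccl4 in T cells by the gate (-2.27), Ly6a in monocytes without any C1q UMI (-0.0445), Ifitm1 in dendritic cells by the gate (-0.18) and Fscn1 in dendritic cells without the richest cells (-0.46) changed sign.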
